A study of Mus musculus with 2 samples.

Results

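The 10 genes described here are those of the cytotoxic granule and of the natural killer (NK) cell surface: Gzma, Gzmb, Prf1, Nkg7, Ncr1, Klrb1c, Klre1, Klra7, Klra8 and Xcl1. They were chosen by symbol, as 10 of the 32285 gene rows of the 2021 library, and all 10 had UMIs in the cells kept. Thymus cells of adult C57BL/6 mice had been sorted for CD64, an Fc receptor for IgG whose gene is Fcgr1, and single-cell RNA-seq libraries were made from them in 2021 and in 2024. The labels call the sorted cells macrophages and name no treatment or mutation, so the study has 1 group. The exact age and the number of mice behind each library are not given in the sources used here. Gene names were used for the 2021 library only, so every value by gene comes from 1 library with no replicate. The intervals below are exact 95% Poisson or binomial intervals and cover counting error only, not differences between mice. Those of levels and of ratios of levels pool the UMIs of a group and leave out the spread between cells.

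NK cells kill infected or altered cells by releasing granules that hold the pore-forming protein perforin (Prf1) and serine proteases, the granzymes (Gzma, Gzmb). Whether a cell is attacked depends on a balance of activating and inhibitory receptors. Many of these in mice are C-type lectins encoded side by side in one gene complex, among them the Ly49 family (Klra genes). Many Ly49 receptors recognise MHC class I molecules, and the genes are switched on in some NK cells and not in others. The thymus holds its own small populations of NK and other innate lymphoid cells among a large majority of developing T cells.

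By position in GENCODE M21 on GRCm38, the receptor genes Klrb1c (chr6:128778485-128789215), Klre1 (chr6:129577905-129585827), Klra8 (chr6:130115226-130129898) and Klra7 (chr6:130218605-130233322) lie within 1454.8 kb of chromosome 6, and 88.7 kb separate Klra8 from Klra7. The other genes are scattered: Xcl1 at chr1:164931644-164935527, Ncr1 at chr7:4337724-4345164, Nkg7 at chr7:43437073-43438249, Prf1 at chr10:61297833-61304680, Gzma at chr13:113093825-113100981 and Gzmb at chr14:56258838-56262260. All 10 are annotated as protein coding.

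The promoters of 5 genes are printed because the results below turn on these genes. They are those of both granzymes, of Xcl1, whose joint detection with Gzmb was examined, and of 2 Ly49 genes examined together. Each runs from 250 bases before to 50 after the annotated start, on the strand of the gene, and comes from RefSeq (GRCm38.p6). Capitals mark matches on either strand to TGTGGT (the Runx motif, ACCACA when reversed), GGTGTG (a T-box motif, CACACC when reversed) and TGACTCA (the AP-1 motif, TGAGTCA when reversed).
Gzma, minus strand, chr13:113100932-113101231: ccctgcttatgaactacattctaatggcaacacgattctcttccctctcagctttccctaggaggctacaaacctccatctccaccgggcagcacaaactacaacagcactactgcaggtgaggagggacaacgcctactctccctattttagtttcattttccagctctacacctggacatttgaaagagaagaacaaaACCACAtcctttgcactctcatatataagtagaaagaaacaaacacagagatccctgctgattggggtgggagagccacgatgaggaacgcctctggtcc
Gzmb, minus strand, chr14:56262285-56262584: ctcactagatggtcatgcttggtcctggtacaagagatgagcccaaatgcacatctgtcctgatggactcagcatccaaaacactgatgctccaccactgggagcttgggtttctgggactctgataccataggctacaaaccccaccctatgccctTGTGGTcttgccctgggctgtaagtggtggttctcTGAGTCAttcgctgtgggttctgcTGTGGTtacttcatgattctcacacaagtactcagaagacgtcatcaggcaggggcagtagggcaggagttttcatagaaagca
Xcl1, minus strand, chr1:164935473-164935772: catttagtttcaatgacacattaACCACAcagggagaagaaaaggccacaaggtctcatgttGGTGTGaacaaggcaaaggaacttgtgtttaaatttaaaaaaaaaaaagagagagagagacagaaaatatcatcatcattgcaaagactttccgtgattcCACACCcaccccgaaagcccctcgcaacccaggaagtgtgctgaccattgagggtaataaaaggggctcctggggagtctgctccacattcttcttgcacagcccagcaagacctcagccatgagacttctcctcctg
Klra7, minus strand, chr6:130233273-130233572: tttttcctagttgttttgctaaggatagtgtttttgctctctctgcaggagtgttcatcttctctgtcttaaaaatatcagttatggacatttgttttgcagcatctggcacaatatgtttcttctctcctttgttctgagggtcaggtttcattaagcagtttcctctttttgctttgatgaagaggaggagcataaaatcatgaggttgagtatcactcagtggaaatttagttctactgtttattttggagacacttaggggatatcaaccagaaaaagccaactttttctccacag
Klra8, minus strand, chr6:130129849-130130148: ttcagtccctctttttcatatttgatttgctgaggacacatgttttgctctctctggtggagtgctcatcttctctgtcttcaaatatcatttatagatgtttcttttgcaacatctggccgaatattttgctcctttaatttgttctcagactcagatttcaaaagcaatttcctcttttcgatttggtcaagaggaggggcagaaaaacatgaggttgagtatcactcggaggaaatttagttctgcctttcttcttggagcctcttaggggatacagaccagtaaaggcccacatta

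RefSeq promoters were matched for all 10 genes, 14 promoters in all, since several genes have more than 1 annotated start. The Runx motif was found in a promoter of 8 of the 10 genes, all but Klra7 and Klra8, while 18.9% of 27025 genes with a RefSeq promoter held it. A T-box motif was present for Nkg7 and Xcl1 (21.4% of all genes) and an AP-1 motif for Gzmb (5.95% of all genes). No 2 matches overlap in the promoters printed. The printed promoters of Klra7 and Klra8 held none of the 3 motifs and were alike with each other, with 238 identical bases over 314 aligned columns (75.8%). Each of these genes has another annotated promoter, and the pairings not printed were less alike (48.1, 50.7 and 57.9%). These matches describe letters in the windows; binding was not measured.

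The 2021 library held 3214 barcodes, of which 3188 reached 500 UMIs and 300 genes with no more than 10% of UMIs from mitochondrial genes. After 3 doublet calls were removed, 3185 cells remained, with between 502 and 18653 UMIs. The 2024 library had 2815 barcodes and a median of 5312 UMIs against 2157.5 in 2021. Cells were clustered without the 10 genes and without any other Klr or Gzm gene, so that the classes below were not drawn from the genes described. They comprised NK and innate lymphoid cell (ILC)-like cells (300), T lineage-like (365), B lineage-like (215), conventional dendritic cell (DC)-like (768), macrophage-like (430), monocyte-like (452) and neutrophil-like cells (410), with 3 clusters of 102, 98 and 45 cells left unnamed.

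The NK and ILC-like class made up 9.42% of kept cells (8.43 to 10.5%) and carried 10 of 15 NK and ILC markers at a raised level, among them Klrd1, Il2rb, Eomes and Tbx21. Gata3 (15 UMIs) and Il18r1 (70 UMIs), which other innate lymphoid cells also carry, were raised too. Rora and Il1rl1 had 0 UMIs and Il7r had 5. Of the T lineage list, 2 of 15 markers (Lck and Trbc1) were raised, and all 8 eosinophil, basophil and mast cell markers stood at 0. None of 12 macrophage markers was raised and 3 of them (Mertk, Adgre1 and Timd4) stood at 0, but the list summed to 242 UMIs in the class (759 CPM, against 3469 CPM in the other cells). Fcgr1 itself, which encodes the protein the sort was gated on, had 1 UMI in these 300 cells (3.14 CPM, that is UMIs per 1000000 UMIs of the class) against 116 CPM in macrophage-like cells.

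All 10 genes had their highest level in the NK and ILC-like class, which held 8004 of their 9055 summed UMIs (88.4%, 87.7 to 89.0%) while holding 3.75% of all UMIs. The share in the class ranged from 78.2% for Gzmb to 94.8% for Xcl1. Against all other kept cells, all 10 passed a log2 ratio of 1 with 10 CPM added to both sides, with a median of 5.81. Over all genes tested, 5.57% of 11126 were higher in the class by that rule, 11% were lower and the median was -0.09. The class was named from other NK genes of the same cells, so these ratios describe the cells and are no test.

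Among the granule genes, Gzma, the tryptase-like granzyme, had 4593 UMIs in the class, or 14409 CPM (13995 to 14832), and was seen in 96.7% of its cells. The median cell held 14 Gzma UMIs and the highest 49. Nkg7, a granule membrane protein needed for granule release, had 1648 UMIs (5170 CPM, 4923 to 5426) and was seen in 95.7% of cells, with a median of 5 UMIs. These 2 genes together accounted for most member UMIs of the class, Gzma for 57.4% and Nkg7 for 20.6%. Gzmb, the granzyme that cleaves after aspartate, reached 552 CPM (474 to 640) in 35.0% of cells, and Prf1 reached 493 CPM (419 to 576) in 37.3%. Each transcript gives 1 tag in this chemistry, so these UMI levels were not divided by gene length, but capture can differ between transcripts.

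The receptor genes lay within a narrower range. Klre1, a lectin receptor that pairs with other Klr chains, had 995 CPM (888 to 1110) and a UMI in 62.0% of cells. Klrb1c, which encodes NK1.1, the antigen used to identify NK cells in C57BL/6 mice, had 693 CPM (605 to 791) in 47.3%. Ncr1, the activating receptor NKp46, had 668 CPM (582 to 764) in 47.7%. The intervals of Klrb1c and Ncr1 overlapped, so these neighbours did not differ beyond counting error. Klra8, the activating receptor Ly49H, had 615 CPM (532 to 707) in 34.0% of cells, and Klra7, the inhibitory receptor Ly49G, had 609 CPM (526 to 701) in 39.0%. Xcl1, the chemokine lymphotactin, whose receptor Xcr1 is carried by cross-presenting dendritic cells, had 907 CPM (805 to 1017) but was seen in 32.7% of cells, and 1 cell held 29 of its 289 UMIs.

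**Figure D1:**
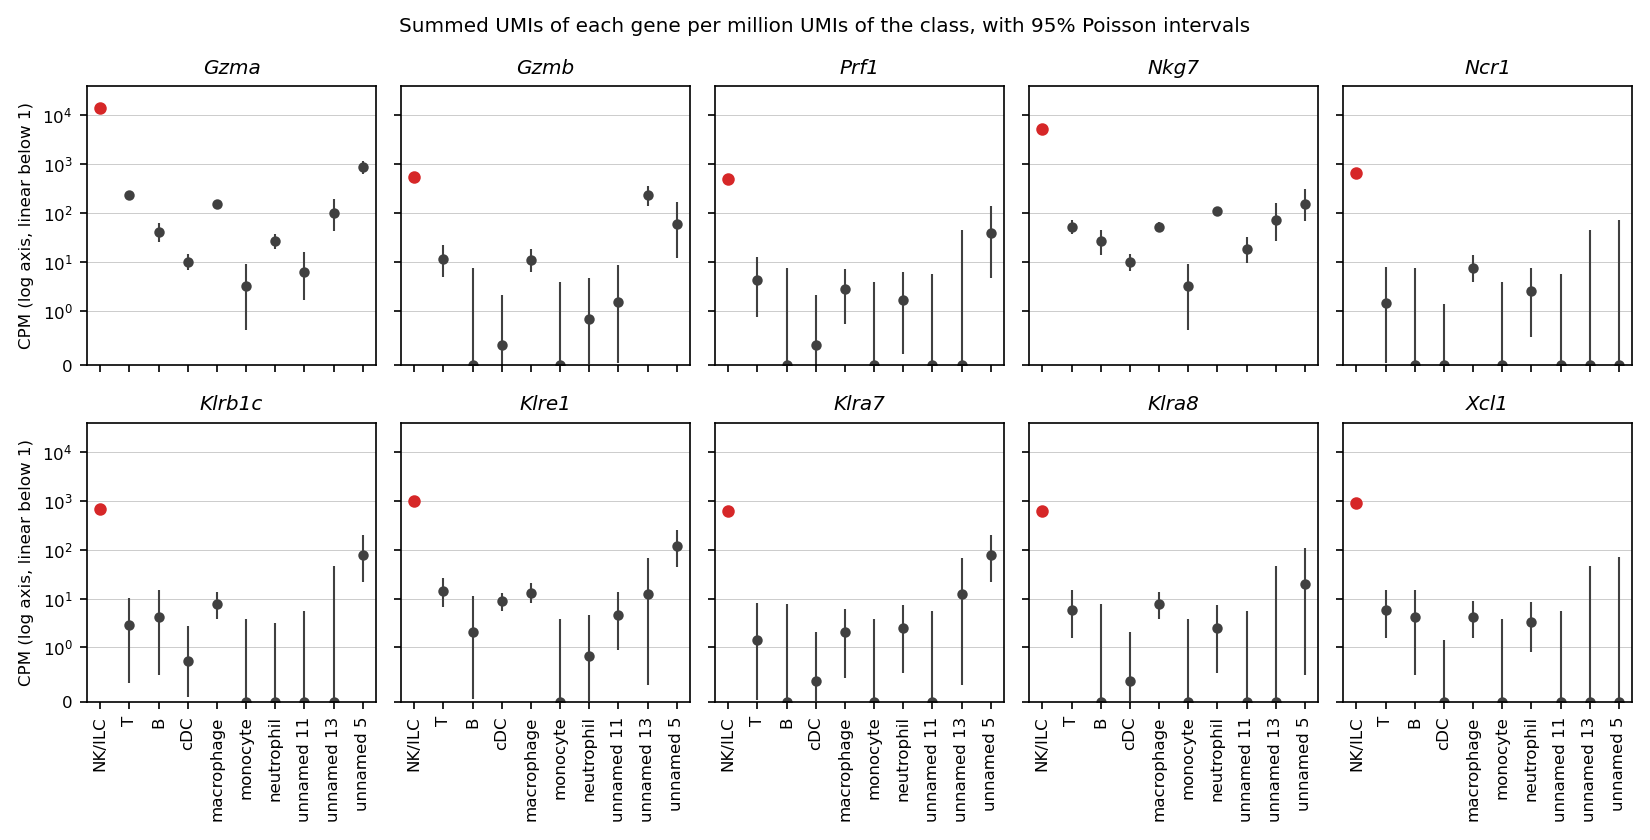
Level of each gene (CPM, logarithmic axis that is linear below 1) in the 10 cell classes and unnamed clusters of the 2021 library, with 95% Poisson intervals; the NK and ILC-like class is in red. Every gene is highest in that class, and the next highest level belongs to different classes for different genes, for example unnamed cluster 5 for Gzma and unnamed cluster 13 for Gzmb.

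In each NK list below more genes were higher in the class than lower, where 5.57% of all genes tested were higher and 11% lower. Of 13 other NK receptor genes tested, 12 were higher in the class and none was lower, including Klrd1 (2312 against 204 CPM outside) and Klrk1, which encodes NKG2D (546 against 20.9 CPM). Fcgr3, the low-affinity IgG receptor also called CD16, was the exception: it had 12 UMIs in the class (37.6 CPM) against 72.1 CPM outside. Of 9 other granule genes tested, 6 were higher and 1 was lower. Ctsw, a protease of killer cells, had 270 UMIs in the class and 61 outside, and Lamp1, a membrane protein of lysosomes in many cell types, was the one that was lower. Gzmk had 3 UMIs in the class and Gzmc 9, too few to enter the comparison, and Gzmd, Gzme, Gzmf and Gzmg had 0 UMIs in all kept cells. Of 8 cytokine and chemokine genes tested, 5 were higher, with Ccl5 at 29332 CPM and Ifng at 69 UMIs against 13 outside, and 1, Tnf, was lower. Of 9 signal adaptor genes 6 were higher, of 12 transcription factor genes 7, of 8 cytokine receptor genes 5 and of 11 NK maturation genes 7, with none lower. Of 14 T lineage genes, 3 were higher (Trbc1, Trdc and Lck) and 3 were lower (Cd8a, Cd8b1 and Dntt).

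By the correlation of log2(CPM + 10) over the 13 clusters, the genes most like the members were for the most part other NK genes. Klrc1 or Klrc2, which encode NKG2A and NKG2C, were among the 3 closest for 7 of the 10 genes and led for Klrb1c (r = 0.99), Ncr1 (r = 0.99), Klre1 (r = 0.97) and Klra7 (r = 0.96). Ctla2b led for Prf1 (r = 0.97), Klra8 (r = 0.96) and Nkg7 (r = 0.93), Klra9 for Xcl1 (r = 0.99), Il18r1 for Gzmb (r = 0.95) and Ugcg for Gzma (r = 0.90). These values are over 13 clusters of 1 library, among 8602 genes, and rest largely on the contrast of 1 cluster with the rest.

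Cells of the class carried many of the genes at once. With all UMIs, 211 of 300 cells (70.3%, 64.8 to 75.4%) had a UMI of 5 or more of the 10 genes, against 17 of 2885 other cells (0.589%, 0.344 to 0.942%). Each of the 300 cells had at least 1. The cells of the class were shallow, with a median of 976 UMIs against 2376 in the others, and after thinning to 2000 UMIs only 6 of them were left, 5 of which had 5 or more genes. A depth of 500 UMIs, which left out none of the 3185 cells, was therefore added after the data were seen. At that depth 93 of 300 cells of the class (31.0%, 25.8 to 36.6%) and 0 of 2885 others had a UMI of 5 or more genes; a count of 0, read as at most 3 cells, allows a share of up to 0.104%. Single genes then ranged from 93.3% of cells of the class for Gzma and 88.0% for Nkg7 down to 60 of the 300 cells for Xcl1, and none was seen in more than 1.32% of the other cells.

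**Figure D2:**
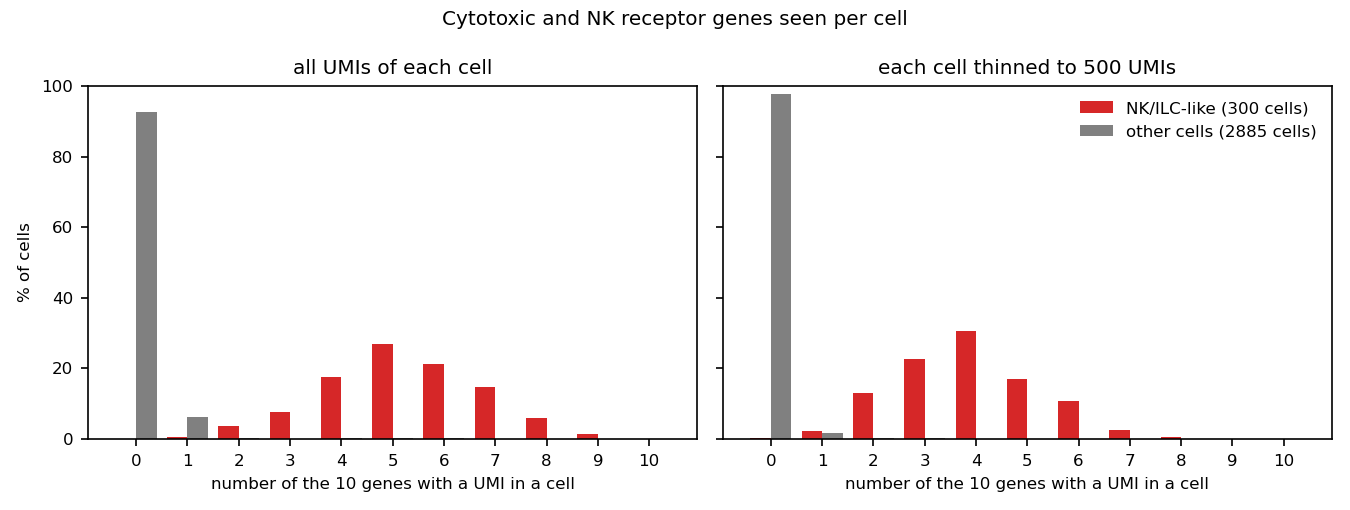
Number of the 10 genes with a UMI in a cell (x axis) against the percentage of cells (y axis), for 300 NK and ILC-like cells and 2885 other cells, with all UMIs on the left and 500 UMIs per cell on the right. With all UMIs, 287 NK and ILC-like and 27 other cells had 3 or more genes, and at 500 UMIs 253 and 7. The groups overlap at fewer genes, where 13 NK and ILC-like cells had 1 or 2 with all UMIs and 46 at 500 UMIs. Thinning moves the median of the NK and ILC-like cells from 5 genes to 4.

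Within the class, cells with both Xcl1 and Gzmb or Prf1 were fewer than independent detection gives, by an amount that varied with depth. With all UMIs, 22 of 105 cells with Gzmb and 27 of 112 with Prf1 had Xcl1, against 98 of all 300. The depth of 500 UMIs was added after the data were seen. At 500 UMIs per cell, 5 of 300 cells had both Gzmb and Xcl1, where independent detection gives 12.4 (ratio 0.403, 0.131 to 0.941). Prf1 and Xcl1 were found together in 4 cells against 14.0 (ratio 0.286, 0.0778 to 0.732). Of the 45 pairs of the 10 genes these were the 2 whose interval lay below 1, and 1 pair, Gzmb and Ncr1, lay above it, with 28 cells against 18.2 (ratio 1.54, 1.02 to 2.23). Pairs with Gzma (93.3% of cells) or Nkg7 (88.0%) could hardly exceed 1, because those genes were seen in most cells. The intervals are not adjusted for 45 pairs. As Poisson intervals of the joint count, they are wider than intervals that hold both genes' numbers of cells fixed. An interval that includes 1 therefore does not show independence. With all UMIs, where deeper cells show more genes, Gzmb and Xcl1 were still found together in fewer cells than independent detection gives (22 against 34.3, ratio 0.641, 0.402 to 0.971), while the interval of Prf1 and Xcl1 reached 1 (ratio 0.738, 0.486 to 1.07). At 1000 UMIs, with 145 cells, both intervals included 1 (ratios 0.707 and 0.671).

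Splitting the class by Xcl1 uses the same UMIs as the pairs above, which were chosen as the lowest of 45, so the levels of Gzmb and Prf1 in this split are a description and add no support. The 98 cells with an Xcl1 UMI had 9756 CPM of Gzma, against 16987 CPM in the 202 cells without one, a log2 ratio of -0.80 (-0.90 to -0.70). Gzmb stood at 343 against 668 CPM (-0.96, -1.51 to -0.44) and Prf1 at 326 against 585 CPM (-0.85, -1.42 to -0.30). All 3 effectors of killing were lower in the cells with Xcl1. Those cells were deeper (median 1079.5 against 927.5 UMIs), and the part of depth in these levels was not tested. Nkg7 (-0.44) and Klra8 (-0.54) were also lower with intervals below 0, while the intervals of Ncr1, Klrb1c, Klre1 and Klra7 included 0. None of these 9 genes passed a log2 ratio of 1 in either direction with 10 CPM added, where 2.66% of 2632 genes were higher and 5.4% lower. Genes outside the 10 that did pass included Cma1, a chymase listed here among NK maturation genes, at 114 against 473 CPM, and Ltb, the cytokine lymphotoxin beta, at 326 against 82.9 CPM.

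A split made without the 10 genes uses the same 300 cells, so it is a further description and no independent support. Reclustering the 300 cells on the reduced gene set gave 2 sub-clusters, of 109 and 191 cells, with median depths of 889 and 1044 UMIs. Genes that led the first included Hist1h2ae, Cma1 (699 against 162 CPM), Uba1 and Tmem37. Of 10 NK maturation genes tested, Cma1, Klrg1, Spn and Ly6c2 were higher in it and Cd27, which marks less mature NK cells, was lower (27.6 against 133 CPM). Gzma stood at 20822 CPM in the first sub-cluster and 11091 in the second, a log2 ratio of 0.91 (0.82 to 0.99). Prf1 had 699 against 386 CPM (0.86, 0.39 to 1.33), Gzmb 764 against 443 CPM (0.79, 0.34 to 1.23) and Klrb1c 920 against 576 CPM (0.68, 0.28 to 1.07). Xcl1 went the other way, with 506 against 1114 CPM (-1.14, -1.59 to -0.71). It was the 1 member of 10 past a log2 ratio of 1 here, lower in the first sub-cluster, where 5.74% of 2632 genes were lower and 3.61% higher. Nkg7 was also higher in the first (0.37, 0.23 to 0.52), while Ncr1, Klre1, Klra7 and Klra8 had intervals that included 0.

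The second sub-cluster also held macrophage transcripts: C1qa, C1qb and C1qc together had 61 UMIs in it and 6 in the first, and C1qb, Resf1, Pmepa1, Apoc1 and Emb led its genes. Of the 300 cells, 25 had a C1q UMI. The part of these transcripts, or of depth, in the difference between sub-clusters was not tested.

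Sorting the class by the 2 maturation markers themselves left few cells. Itgam without Cd27, the pattern of mature NK cells, was seen in 45 cells, and Cd27 without Itgam in 25; both gates were chosen after it was seen that 3 cells had an Il7r UMI without Eomes. Gzma stood at 14299 CPM in the Itgam gate and 9449 in the Cd27 gate (0.60, 0.40 to 0.80), and Xcl1 at 1027 against 1558 CPM (-0.60, -1.19 to -0.01). These intervals leave out the spread between cells, which over the class ran from 0 to 49 UMIs for Gzma and 0 to 29 for Xcl1. With so few cells, 1 cell can move the level of Xcl1. The other 8 genes had intervals that included 0, and 0 of the 10 passed a log2 ratio of 1, where 7.8% of 744 genes were higher and 3.63% lower. The chemokine genes Ccl3 (440 against 1897 CPM) and Ccl4 (2438 against 5317 CPM) were lower in the Itgam gate. A Cd3d level of 73.3 against 372 CPM went with the Cd27 gate, and the part of T lineage transcripts there was not tested.

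**Figure D3:**
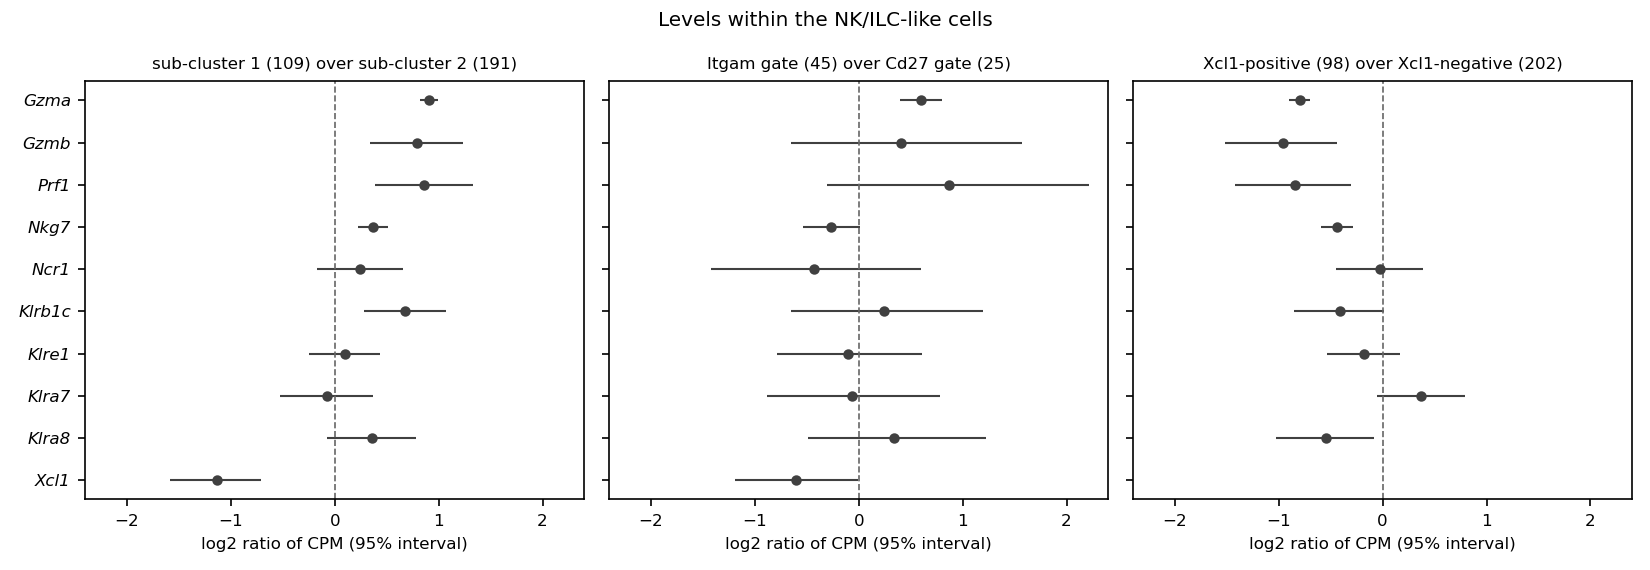
Log2 ratio of CPM with 95% intervals (x axis) for each gene in 3 splits of the NK and ILC-like cells: sub-cluster 1 over sub-cluster 2, Itgam gate over Cd27 gate, and cells with an Xcl1 UMI over cells without. Gzma is to the right of 0 in the first 2 panels and to the left in the third, opposite to Xcl1; Xcl1 is left out of the third panel because it defines that split.

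The Ly49 family was represented by 6 genes in the class. Klra8 (196 UMIs) and Klra7 (194) were followed by Klra4 (149 UMIs, 467 CPM), the activating receptor Ly49D, and then by Klra9 (86), Klra3 (61) and Klra1 (52). Klra6 had 2 UMIs, and Klra5, Klra10, Klra2 and Klra17 had 0, which allows up to 9.41 CPM at 3 UMIs of the class. Klra2 and Klra17 were instead found in myeloid classes. Klra2 had 127 UMIs in monocyte-like cells (134 CPM, 112 to 159), 111 in macrophage-like cells (77.3 CPM) and 43 in neutrophil-like cells (36.2 CPM), and Klra17 had 26 UMIs each in neutrophil-like (21.9 CPM) and conventional DC-like cells (9.84 CPM). Monocyte-like cells had 0 UMIs of Klra7 and Klra8. Of 8 Ly49 genes with enough UMIs to compare, 6 were thus higher in the NK and ILC-like class and 1, Klra2, was lower.

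Joint detection of Ly49 genes lay near what independent detection gives. Klra7 and Klra8 were seen together in 45 cells, Klra7 alone in 72, Klra8 alone in 57 and neither in 126, with median depths of 1091, 1101, 1037 and 893 UMIs. Independent detection gives 39.8 cells with both, so the ratio was 1.13 (0.825 to 1.51). At 500 UMIs it was 0.888 (15 cells against 16.9, 0.497 to 1.46). Neither interval excluded 1, and these data bound the ratio without showing that the genes are independent. With a class taken instead from UMIs of 6 marker genes, at 2000 UMIs and 341 cells, the interval did exclude 1 (ratio 19.5, 2.36 to 70.4). At most 6 of those 341 cells were of the NK and ILC-like class, the number of its cells that reached 2000 UMIs. That ratio therefore covers mostly cells outside the class and is not a second estimate within it. The class of 6 markers had 604 cells in all and 79.2% of the UMIs of the 10 genes. Of the 15 pairs among Klra1, Klra3, Klra4, Klra7, Klra8 and Klra9, none had an interval that excluded 1 at 500 UMIs. These Poisson intervals do not hold each gene's number of cells fixed and are wider for that, so departures from independence could be missed. The lowest ratio was 0.417 for Klra4 with Klra9 (3 cells against 7.19, 0.0861 to 1.22) and the highest 2.19 for Klra1 with Klra4 (5 against 2.29, 0.710 to 5.10).

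Counted per cell at 500 UMIs, 108 cells had none of the 6 Ly49 genes, 125 had 1, 56 had 2 and 11 had 3. Independent detection of the same 6 shares gives 110.5, 123.2, 53.5 and 11.5 cells. With all UMIs, 244 of 300 cells (81.3%, 76.5 to 85.6%) had a UMI of at least 1 of the 6 genes. Among cells with an Eomes UMI and no Il7r UMI, 29 of 34 had a UMI of a Ly49 gene (85.3%), and 1 of 3 in the opposite gate, too few for a comparison.

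**Figure D4:**
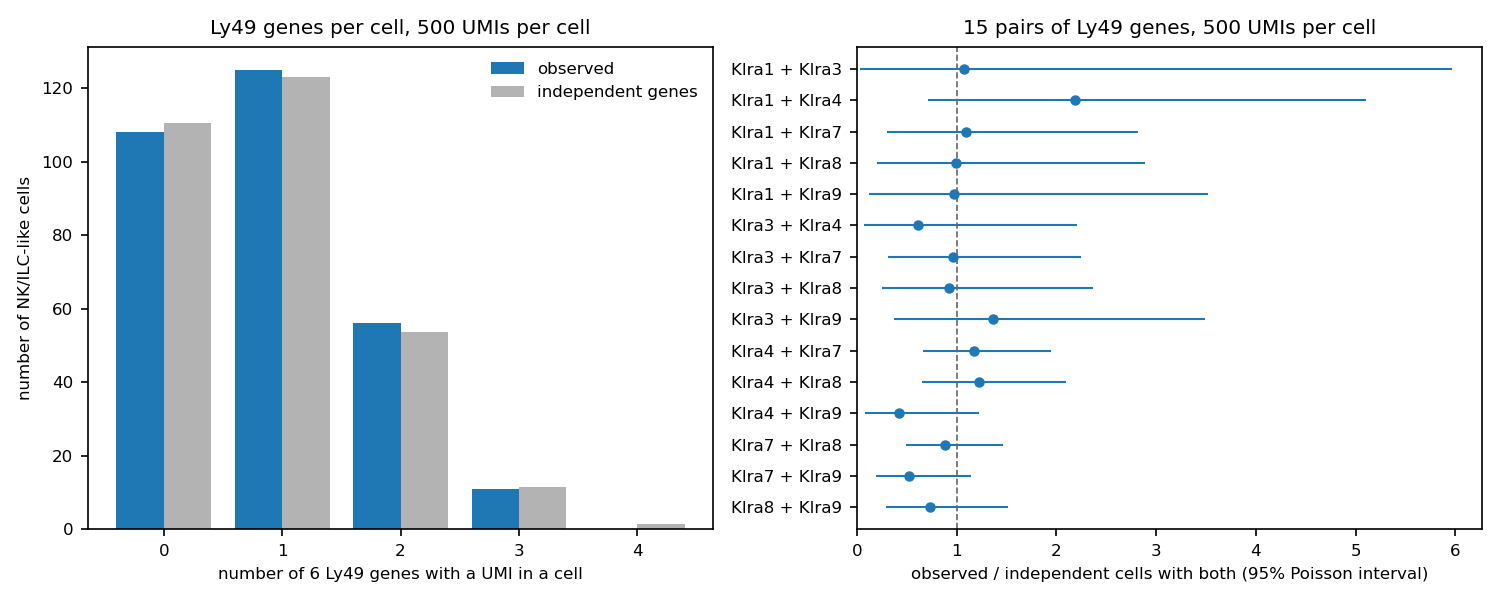
Left, number of NK and ILC-like cells (y axis) with 0 to 4 of 6 Ly49 genes (x axis) at 500 UMIs per cell, observed and as independent detection gives. Right, observed over independent number of cells with both genes for 15 pairs, with 95% Poisson intervals; every interval includes 1.

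Reads of such similar genes may be hard to tell apart, so shared sequence was examined in the annotated protein-coding transcripts. The pseudogenes Klra13-ps and Klra14-ps were left out. Over the last 400 bases of each transcript in GENCODE M21, all 50-base windows of Klra7 were unique among the protein-coding Ly49 genes. So were 84.3% of those of Klra8 and 62.3% of those of Klra9. Klra7 and Klra8 shared 0 windows, and Klra8 shared 55 with Klra9. With 90-base windows, all of those of Klra8 and 98.6% of those of Klra9 were unique. Values of Klra9, Klra3 (63.4% unique at 50 bases) and Klra10 (47.9%) are less certain than those of Klra7, and the read length used is not given in the sources used here.

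Outside the class, 210 of 2885 cells had a UMI of any of the 10 genes, 1051 UMIs in all, and 617 of these (58.7%) lay in 27 cells with 3 or more of the genes. Macrophage-like cells held 379 UMIs of the 10 genes, 361 of them (95.3%) in 16 of 430 cells (3.72%), and Gzma and Nkg7 led there as in the NK and ILC-like class (Gzma 59.1 against 57.4% of these UMIs, Nkg7 19.5 against 20.6%). Rarer genes differed more, with Gzmb at 4.22 against 2.20%, Klra7 at 0.792 against 2.42% and Xcl1 at 1.58 against 3.61%. The 16 cells also had Ccl5 in all 16 and C1q genes in 13, at 4163 CPM of C1q against 4981 in the other 414 macrophage-like cells. Their median depth was 3896 against 2677 UMIs and their median doublet score 0.152 against 0.0722, and 9 of the 16 were among the 6% of cells with the highest scores. In the other 414 cells, Gzma had 8 UMIs (5.86 CPM), Nkg7 4, and Prf1, Klrb1c, Klra7 and Klra8 had 0. Whether each of the 16 barcodes holds 2 cells was not tested. In the unnamed cluster of 45 cells, which had the second highest Gzma level (865 CPM), 71 of 72 UMIs were likewise in 2 cells.

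Monocyte-like cells, with the lowest summed level of the 10 genes of any class or cluster, were taken as a low reference. Other classes stand above them by that choice, so values set beside them are no test. Their 452 cells had 6 UMIs of the 10 genes in all, 3 of Gzma and 3 of Nkg7, in 6 cells, or 6.33 CPM for the 10 genes together at a median depth of 2005.5 UMIs. The remaining 8 genes had 0 UMIs there, which at 3 UMIs allows up to 3.16 CPM each. Gzma had the most UMIs of the 10 genes in T lineage-like, B lineage-like, macrophage-like and conventional DC-like cells, and Nkg7 in neutrophil-like cells.

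Gzma in T lineage-like cells had 168 UMIs in 39 of 365 cells (240 CPM, 205 to 279), of which 155 were in cluster 10, whose leading genes were those of early, dividing thymocytes (Dntt, Trdc, Top2a). A cell of 17491 UMIs held 58 of these; without it cluster 10 had 97 Gzma UMIs (201.9 CPM in place of 311). Nkg7 and Ccl5, seen in nearly every NK and ILC-like cell, were seldom seen beside Gzma here. Of the 39 T lineage-like cells with a Gzma UMI, 3 had a Nkg7 UMI, 4 a Ccl5 UMI and 3 a Klrd1 UMI, while 38 had a UMI of a Cd3 gene and 33 of Dntt. The cell with 58 Gzma UMIs had 0 of Nkg7 and Ccl5 and 33 of Cd3 genes. The 3 cells with 3 or more of the 10 genes held 37 Gzma UMIs and all 15 Nkg7 UMIs of the 39, with 67 of Ccl5 and 10 of Klrd1. The cells of cluster 10 with Gzma and few other members were deep (median 7684 UMIs), and at 500 UMIs a Gzma UMI was seen in 7 of 140 cells of cluster 10, in 9 of 225 of cluster 9 and in 1 of 452 monocyte-like cells. At 1000 UMIs it was seen in 12 of 126 cells of cluster 10 and 2 of 54 of cluster 9, at 2000 UMIs in 16 of 83 and 0 of 11, and with all UMIs in 28 of 140 and 11 of 225. Cluster 10 had the higher share at each depth, with overlapping intervals at each of the 3 thinned depths. Cluster 9, led by Trac, Cd3g and Rag1, had more Nkg7 (20 UMIs, 99.3 CPM) than Gzma (13 UMIs, 64.5 CPM), in 11 cells each. C1q genes had 75 UMIs in 11 of the 39 T lineage-like cells with Gzma, and the part of transcripts from other cells was not tested. Ncr1 and Klra7 had 1 UMI each in all T lineage-like cells.

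Nkg7 in neutrophil-like cells made up 72.9% (65.8 to 79.3%) of the UMIs of the 10 genes, against 20.6% in the NK and ILC-like class. It had 132 UMIs in 33 of 410 cells (111 CPM, 93.1 to 132). These UMIs were concentrated in the 18 cells with 3 or more UMIs of Elane, Mpo, Prtn3 and Ctsg, the proteases and the peroxidase of primary granules, which are made early in neutrophil development. Nkg7 stood at 618 CPM (503 to 750) there, in 14 of 18 cells, and at 30.3 CPM in the other 392, a log2 ratio of 4.35 (3.76 to 4.98). The 18 cells had 0 UMIs of Gzma, Gzmb and all 5 receptor genes. Only 2 of the 10 genes, Nkg7 and Gzma, had enough UMIs to be compared by a log2 ratio of 1 with 10 CPM added. Nkg7 was higher and Gzma (0 against 32 UMIs) was lower, where 12.5% of 4862 genes were higher and 25% lower. The 18 cells were much deeper (median 8696.5 against 1939.5 UMIs), and 5 of them had a C1q UMI. Without the cell with the most Nkg7, the level stood at 534.5 CPM. The 32 Gzma UMIs of neutrophil-like cells, by contrast, were in 5 cells, and 21 were in 1 of them.

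Conventional DC-like cells held few UMIs of the 10 genes, with a larger share of Klre1. This gene had 23 UMIs spread over 21 of 768 cells (8.70 CPM, 5.52 to 13.1), with at most 2 in a cell, and made up 28.0% (18.7 to 39.1%) of the UMIs of the 10 genes there against 3.96% in the NK and ILC-like class. Klrd1, which encodes CD94, was common in these cells, with 510 CPM and a UMI in 51.7% of them. Of the 21 cells with Klre1, 16 had a Klrd1 UMI and 9 a Klrk1 UMI, while 1 cell held all 18 Gzma UMIs and all 6 Nkg7 UMIs. At 2000 UMIs, 2.03% of conventional DC-like cells (1.11 to 3.38%) and 0 of 229 monocyte-like cells had a Klre1 UMI. Xcr1, which encodes the receptor of the Xcl1 protein, had 54 UMIs in 29 conventional DC-like cells and 0 in the NK and ILC-like class.

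Gzmb led in the unnamed cluster of 98 cells led by Ifitm1, Ccl3 and Csf1, with 19 UMIs in 4 cells (233 CPM, 141 to 364). Of these UMIs, 13 were in 2 of the 4 unnamed cells with 3 or more UMIs of the basophil and mast cell genes Mcpt8, Cpa3, Ms4a2, Fcer1a and Gata2, and those 4 cells had 0 Gzma UMIs. A single cell held 11 of the 19 UMIs, and without it the cluster had 100.4 CPM. These are too few cells for more than a description.

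**Figure D5:**
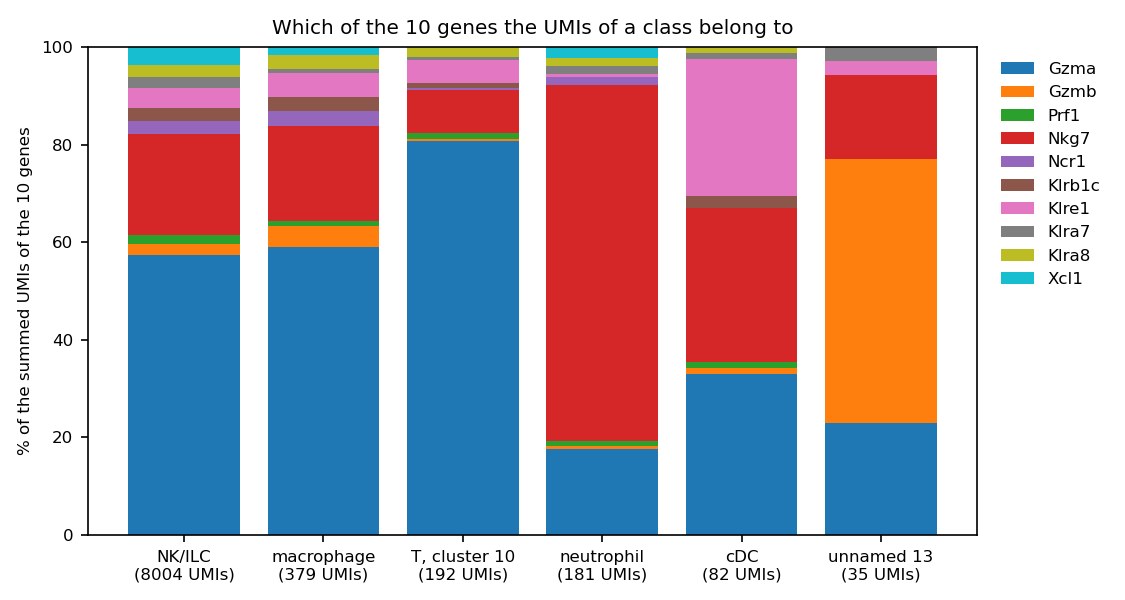
Percentage of the summed UMIs of the 10 genes that belongs to each gene (y axis), in 6 classes or clusters with the number of UMIs below each bar. Gzma and Nkg7 lead in macrophage-like as in NK and ILC-like cells, while Gzma leads in T lineage-like cluster 10, Nkg7 in neutrophil-like cells, Klre1 is enlarged in conventional DC-like cells and Gzmb leads in unnamed cluster 13.

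T cells and NK cells share several of the 10 genes, so the class was also examined for T cell receptor components. Of the 300 cells, 18 had a UMI of Cd3e, Cd3d or Cd3g. They had 10300 CPM of Gzma against 14753 in the other 282, Nkg7 at 5596 against 5134 CPM and Ncr1 at 324 against 697 CPM. Trdc, whose transcript is also made in NK cells without a rearranged receptor, had a UMI in 26 cells, which had 646 CPM of Ncr1 against 670 in the rest. With or without these UMIs, each group held Gzma, Nkg7, Klre1 and Ly49 transcripts, with a Ly49 UMI in 12 of the 18 cells with Cd3 and 20 of the 26 with Trdc.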

How the data were processed

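Cells sorted on CD64 from adult C57BL/6 mouse thymus were profiled with the 10x Genomics 3′ chemistry in 2 libraries. The deposited values are whole-number UMI counts, 1 for each gene in each barcode, made by the authors with Cell Ranger 6.0.0 (2021) and 8.0.0 (2024) per the file headers, on build mm10 per the submitters' processing notes; other settings are not given in the sources used here. The 2024 counts were used for depth only, because no list of its gene names was used, so libraries were not compared, shared barcodes were not counted and no p-values were computed.

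Members and gene lists were chosen with earlier results of these data known. Kept barcodes had at least 500 UMIs, 300 genes and at most 10% mitochondrial UMIs. Scrublet (scanpy 1.11.5, expected rate 6%) called 3 doublets (0.0941%), too few to have worked, so most doublets may remain. For clustering, each cell was set to a total of 10000 and logged. The 2000 most variable genes without members, Klr and Gzm genes, 30 principal components, 15 neighbours and Leiden resolution 0.5 (igraph 0.11.9) gave 13 clusters. Clusters were named from marker lists when at least 3 markers were raised and leading genes did not go against the name; names are rebuilt here.

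Summed UMIs of a class were expressed as CPM (UMIs per 1000000). All 10 members are named; other genes are named when past a log2 ratio of 1 with 10 CPM added, among genes with 15 or more UMIs, as the 5 leading genes of a sub-cluster, as the 3 genes most correlated with a member over clusters (50 or more UMIs), or as examples of the lists; a few genes are not reported here. Ratios printed with intervals are without added CPM, with exact conditional binomial intervals. Thinning drew UMIs without replacement. Independent co-detection is the product of both genes' shares. Its ratio carries a Poisson interval of the joint count, which is wider than an interval with both shares held fixed. Calculations, tested on simulated data, ran in Python 3.11.15 (scipy 1.17.1, numpy 2.4.6, pandas 2.3.3, figures with matplotlib 3.10.9). Alternatives varied the cell filter, doublet removal, clustering, class definition and thinning.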

Additional observations from a re-analysis of the deposited data

How the results depend on the processing

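The class held 300 cells and 88.4% of the UMIs of the 10 genes. A stricter filter (1000 UMIs, 500 genes, 5% mitochondrial UMIs) gave 147 cells and 81.8%. A class taken as cells with 2 or more UMIs of Klrd1, Klrk1, Il2rb, Eomes, Txk and Tbx21 together and no Cd3 UMI gave 604 cells and 79.2%. The share was 92.0% without the 6% of cells with the highest doublet scores, 89.1% with clustering on all variable genes, and 95.1% without those cells and the member-rich cells outside the class, an alternative added after seeing the data. At 2000 UMIs per cell, 5 of 6 cells (83.3%) had 5 or more genes. This became 31.0% at 500 UMIs (added after seeing the data, 300 cells) and 2.35% with the class of 6 markers, where the ratio of joint detection of Klra7 and Klra8 was 19.5 (2.36 to 70.4) in place of 0.75 at 2000 UMIs. Of the 341 cells behind both values with 6 markers, at most 6 could be of the clustered class. The cause of these shifts was not tested. The share of Il7r-gate cells with a Ly49 UMI was 33.3% of 3 cells, 40% of 5 with the stricter filter and 2.63% of 38 (0.0666 to 13.8%) with the class of 6 markers, and after thinning to 2000 UMIs it gave no value. No paired analysis was possible because 1 library gave gene values. Depth limits all shares of cells: at a median of 976 UMIs, a gene that is not seen in a cell may still be expressed there.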
